A study of Mus musculus with 4 samples.

Results

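The genes described here encode lysosomal enzymes, lysosomal membrane proteins and the proton pump of the lysosome, together with Tfeb, a transcription factor of lysosomal genes. They were chosen by name, with earlier results of these data known. The 34 symbols were looked up among the 54532 genes of the deposited tables. Each was found once in each of the 4 libraries. All 34 also passed the filter on low counts, a mean of at least 1 CPM (counts scaled to library size), as did 11640 genes in all. By role, 20 belong to the lumen (19 enzymes' genes and prosaposin, Psap), 5 encode membrane proteins, 8 encode subunits of the vacuolar-type ATPase (V-ATPase), and the last is Tfeb.

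Polyadenylated RNA was sequenced from RAW 264.7 cells, a macrophage-like line from a mouse tumour. There were 4 groups of 1 library each: Hnrnpul1-/- cells given lipopolysaccharide (LPS, a bacterial outer membrane lipid sensed by macrophages) at 100 ng/ml for 10 h, wild-type cells given the same LPS, untreated Hnrnpul1-/- cells and untreated wild-type cells. Hnrnpul1 encodes a nuclear RNA-binding protein. The labels used here do not say how the knockout was made, whether it is a single clone, or whether the libraries came from separate cultures. The comparisons ask how LPS moved the lysosomal genes in each genotype, and how the knockout differed from wild type in each treatment.

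Lysosomes are acidic vesicles in which macrophages digest engulfed microbes, dead cells and their own worn parts. The V-ATPase pumps protons into the lumen, where hydrolases with an acidic optimum cut sugar chains, lipids and proteins, and heavily glycosylated membrane proteins such as Lamp1 and Lamp2 line the vesicle wall. Many lysosomal genes carry a short element around CACGTG near their start sites, which Tfeb and its relatives of the MiT family bind.

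Total counts were between 17045432 and 17909549 per library. Hnrnpul1 had 350 and 447 reads in LPS-treated and untreated knockout, against 3114 and 5086 in LPS-treated and untreated wild type. Tnf, an inflammatory cytokine, had 21814 and 18147 reads in LPS-treated knockout and wild type, against 1507 and 1410 in the untreated cells of these genotypes. Nos2, the inducible nitric oxide synthase, had 13150 and 11312 reads with LPS, against 22 and 27 untreated, and the cytokine Il6 had 4155 and 876, against 0 and 0. Of 10 macrophage markers, 9 were measured, while the phagocytic receptor Mertk had at most 1 read per library. The summed marker level was 3546 and 6004 CPM in LPS-treated knockout and wild type, and 3010 and 3541 CPM in untreated knockout and wild type. Markers of T cells, fibroblasts and epithelium had at most 3 summed reads in any library; those of B cells had 29 and 62 with LPS in knockout and wild type, mostly from Pax5, and 3 and 5 untreated.

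Levels below are TMM-normalized CPM, or CPM per kilobase of gene model where genes are set against each other. Ratios between libraries are on the log2 scale, and the ranges beside them are 95% counting intervals; spread between cultures is not in them. A gene is called higher or lower between a pair of libraries when the ratio is at least 2-fold and the interval excludes no change. The words "rose" and "fell" are kept for genes past an adjusted p of 0.05 in edgeR's quasi-likelihood test with Benjamini-Hochberg adjustment over 11640 genes, in a model with genotype and LPS as separate terms. Its 1 residual degree of freedom comes from 4 unreplicated libraries. The spread behind its p-values is the departure, shared across genes, from equal LPS effects in both genotypes. It is not a spread between replicate cultures.

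With LPS, 7 of the 8 V-ATPase genes rose (5 under total-count scaling), led by Tcirg1 and Atp6v0a1. Of the 20 lumen genes, 10 fell, led by Sgsh and Man2b1, 2 rose and 8 did not pass (14 fell and 0 rose under total-count scaling). Tfeb fell to 26.8% of its untreated level in knockout cells and to 30.0% in wild-type cells. Over all 34 genes, 11 rose, 12 fell and 11 did not pass the test; 30.2% of all genes tested rose and 30.1% fell, so the list as a whole was not far from the background. Under total-count scaling these counts were 7 and 18 members, beside 18.1% and 49.7% of all genes. By the 2-fold rule, knockout cells had 4 members higher and 4 lower, where 11.6% and 12.0% of all genes were so called. Wild-type cells had 3 higher and 4 lower, against 11.2% and 10.1%. At 1.5-fold, knockout had 7 higher and 8 lower, beside 19.3% and 21.0% of all genes, and wild type 7 higher and 5 lower, beside 18.9% and 19.2%. Counting intervals excluded no change for 14 higher and 13 lower members in knockout, beside 37.4% and 38.2% of all genes, and for 14 and 12 in wild type, beside 37.0% and 36.2%. The median log2 LPS ratio of the 34 genes was 0.03 in knockout and 0.06 in wild type, beside -0.02 and -0.004 over all genes tested. In these bulk libraries a lower level cannot be told apart from fewer cells expressing the gene.

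**Figure D1:**
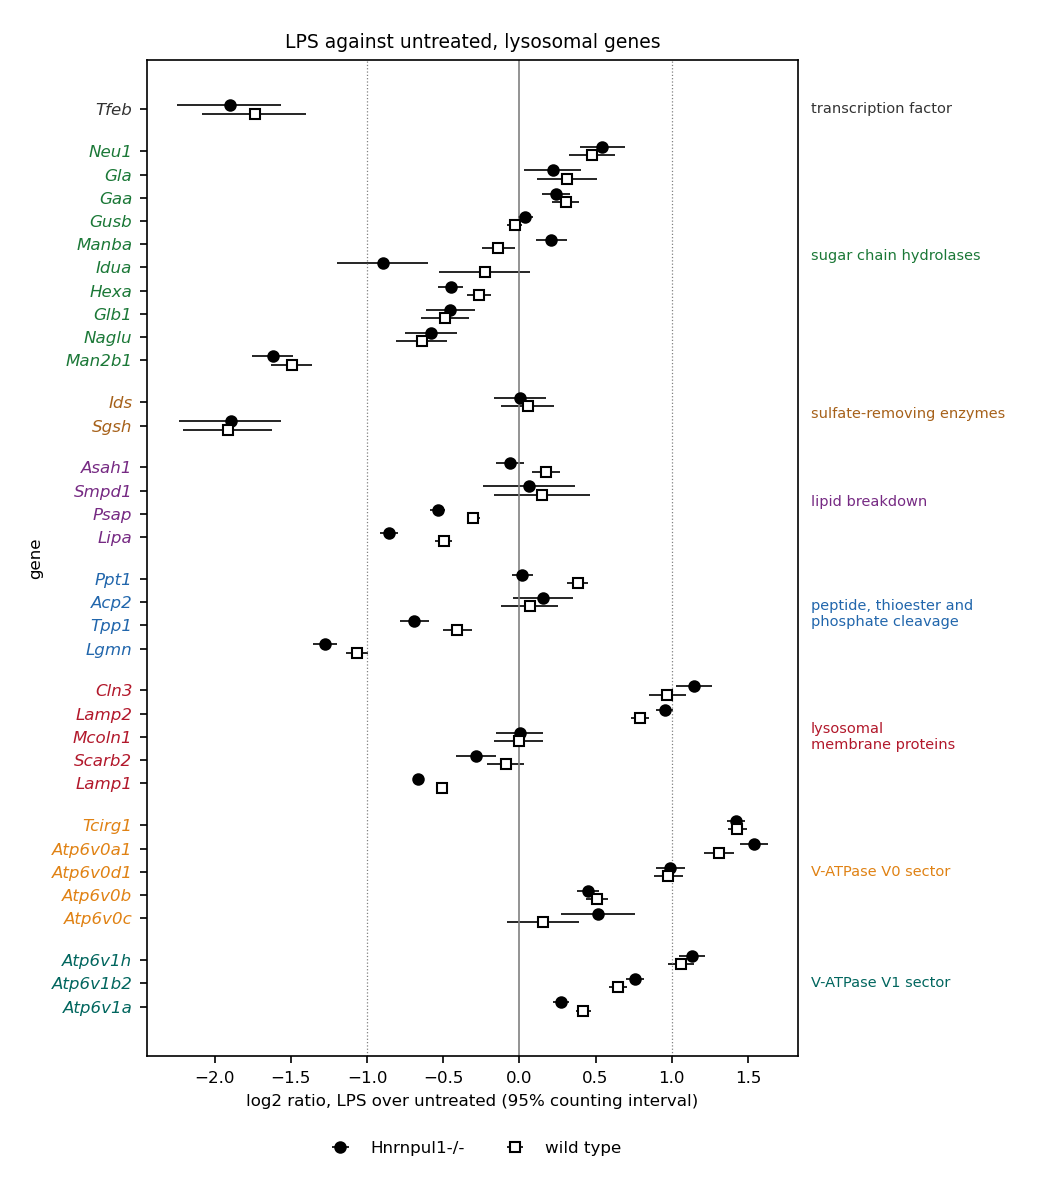
Log2 ratio of LPS-treated over untreated cells for each of the 34 genes, ordered by role, in Hnrnpul1-/- (filled) and wild-type cells (open); bars are 95% counting intervals and dotted lines mark 2-fold. With the TMM scaling shown, the V-ATPase genes sit above 0 in both genotypes (under total-count scaling Atp6v1a is at -0.04 in knockout and Atp6v0c at -0.14 in wild type), while Sgsh, Man2b1, Lgmn and Tfeb lie beyond the 2-fold line on the lower side in both.

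Tfeb (chr17:47737030-47792419, GRCm38, plus strand) had the fewest reads of any member under LPS. Its counts were 89 in LPS-treated knockout and 92 in LPS-treated wild type, against 400 and 379 in untreated knockout and wild type. Both LPS libraries lay far below both untreated ones, and the genotypes were close to each other within each treatment. The log2 LPS ratio was -1.90 (-2.25 to -1.57) in knockout and -1.74 (-2.08 to -1.40) in wild type; the fitted change was -1.82 (SE 0.147; edgeR adjusted p = 1.76e-05). Among its relatives, Tfe3 rose by a fitted log2 of 0.64 and Mitf by 0.76. The log2 LPS ratio of Mitf was 0.38 (0.26 to 0.50) in knockout and 1.12 (1.01 to 1.24) in wild type, a difference that was not tested. Mitf did not pass for genotype (edgeR adjusted p = 0.359).

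The promoters of the members with the largest LPS changes follow, to set the CACGTG core beside them, with Tfeb itself first. They run from 250 bases before to 50 bases after the RefSeq start, on GRCm38.p6, and are printed on the gene's strand from 5′ to 3′. Where CACGTG occurs it is in capitals. The stretch of Lamp1 is shorter (100 bases) and was chosen after its motif count was seen, because it holds 4 copies.
Tfeb, chr17:47736787-47737086, plus strand: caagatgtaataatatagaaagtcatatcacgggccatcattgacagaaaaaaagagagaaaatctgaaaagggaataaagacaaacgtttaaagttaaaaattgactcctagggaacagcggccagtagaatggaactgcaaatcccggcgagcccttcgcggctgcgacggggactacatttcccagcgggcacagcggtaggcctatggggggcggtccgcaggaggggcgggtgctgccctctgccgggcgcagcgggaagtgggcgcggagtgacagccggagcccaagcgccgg
Sgsh, chr11:119355461-119355760, minus strand: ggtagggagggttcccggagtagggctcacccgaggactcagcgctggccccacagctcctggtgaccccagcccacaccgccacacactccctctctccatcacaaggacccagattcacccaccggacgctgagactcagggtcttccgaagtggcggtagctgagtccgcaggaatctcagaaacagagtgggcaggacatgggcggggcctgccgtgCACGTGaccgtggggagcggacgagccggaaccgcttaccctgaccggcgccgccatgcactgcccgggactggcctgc
Man2b1, chr8:85083019-85083318, plus strand: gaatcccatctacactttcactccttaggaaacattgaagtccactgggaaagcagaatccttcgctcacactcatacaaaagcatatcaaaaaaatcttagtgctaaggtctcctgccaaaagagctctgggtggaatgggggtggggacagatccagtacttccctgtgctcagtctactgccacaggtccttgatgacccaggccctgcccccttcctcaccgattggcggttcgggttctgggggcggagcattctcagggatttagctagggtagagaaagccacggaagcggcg
Tcirg1, chr19:3907084-3907383, minus strand: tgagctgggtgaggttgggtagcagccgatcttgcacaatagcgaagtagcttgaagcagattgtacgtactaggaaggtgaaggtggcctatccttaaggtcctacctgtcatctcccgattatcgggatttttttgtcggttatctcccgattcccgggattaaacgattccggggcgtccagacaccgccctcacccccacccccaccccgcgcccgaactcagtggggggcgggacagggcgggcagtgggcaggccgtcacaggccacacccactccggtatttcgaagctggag
Lamp1, chr8:13159081-13159180, plus strand: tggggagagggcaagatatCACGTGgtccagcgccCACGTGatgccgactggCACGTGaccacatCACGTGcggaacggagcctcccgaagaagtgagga

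CACGTG, which reads the same on both strands, was present in 10 of the 31 members' promoters found in the RefSeq table (32.3%), against 2349 of all 32851 listed starts (7.15%). The longer TCACGTG, searched on both strands and overlapping CACGTG by construction, was in 10 of 31 members' promoters and in 3.77% of all starts. The carriers of CACGTG moved in both directions under LPS. Gaa, Atp6v0b, Atp6v0d1 and Atp6v1a rose, Glb1, Naglu, Sgsh and Lamp1 fell, and Gla and Mcoln1 did not pass the test. The windows of Tfeb, Man2b1, Tcirg1 and Lgmn held no CACGTG. Only 1 window was read per member, though 3 starts are listed for Tfeb and for Tcirg1 and 2 for Lgmn. The share over all starts counts every listed start of a gene. The motif was in 5 of 19 lumen promoters, 2 of 5 membrane protein promoters and 3 of 6 V-ATPase promoters. Promoters of Asah1, Atp6v1b2 and Atp6v1h were not analysed here.

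Among the 10 hydrolases of sugar chains, 5 fell and 2 rose with LPS, beside 30.1% and 30.2% of all genes tested. Under total-count scaling 7 fell and 0 rose, beside 49.7% and 18.1% of all genes. Man2b1 (chr8:85083270-85098282, GRCm38, plus strand), the lysosomal alpha-mannosidase that trims glycoproteins, had 598 and 605 reads in LPS-treated knockout and wild type, against 2211 and 2109 in untreated knockout and wild type. Its LPS libraries held well under the reads of the untreated ones, with little difference between genotypes. The log2 LPS ratio was -1.62 (-1.75 to -1.49) in knockout and -1.49 (-1.63 to -1.36) in wild type, and the fitted change -1.56 (SE 0.079; edgeR adjusted p = 1.3e-06). Smaller falls were fitted for Naglu, which removes N-acetylglucosamine from heparan sulfate (-0.61), for Glb1, the beta-galactosidase (-0.47), and for Hexa, a subunit of beta-hexosaminidase (-0.36). Naglu had 443 and 437 reads in LPS-treated knockout and wild type, against 795 and 843 in untreated knockout and wild type. Glb1 had 519 and 514 reads with LPS in knockout and wild type, against 855 and 892 untreated. Hexa had 1953 and 2160 with LPS, against 3213 and 3211 untreated. In each of these genes both LPS libraries were below both untreated ones.

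Idua, the iduronidase of heparan and dermatan sulfate breakdown, also fell in the fit (-0.56; edgeR adjusted p = 0.03), but unevenly. It had 136 and 158 reads in LPS-treated knockout and wild type, against 304 and 229 in untreated knockout and wild type. The untreated knockout library was the high one. Knockout cells had a log2 LPS ratio of -0.89 (-1.20 to -0.60) and wild-type cells of -0.23 (-0.53 to 0.07). Idua overlaps Dgkq on the opposite strand over 9342 bases, and Dgkq had 185 and 199 reads with LPS in knockout and wild type, and 286 and 289 untreated. Whether counting used strand is not given, so reads of such pairs cannot be told apart.

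Neu1, the sialidase that removes terminal sialic acids, rose. Its reads were 826 and 764 in LPS-treated knockout and wild type, and 682 and 679 in untreated knockout and wild type. With LPS, the ratio was 0.54 (0.39 to 0.69) in knockout and 0.48 (0.33 to 0.63) in wild type. Gaa, the acid glucosidase that degrades glycogen, had 114 and 130 CPM with LPS in knockout and wild type, and 96.6 and 106 CPM untreated. It rose by a fitted 0.27 (edgeR adjusted p = 0.0112), a call lost under 3 alternative settings. Gusb (beta-glucuronidase), Gla (alpha-galactosidase) and Manba (beta-mannosidase) did not pass, with fitted changes of 0.00, 0.26 and 0.04. Gusb held at 404 and 400 CPM in LPS-treated knockout and wild type, beside 393 and 409 CPM in untreated knockout and wild type.

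Of the pair of enzymes that remove sulfate groups from heparan sulfate, Sgsh fell and Ids did not pass. Sgsh (chr11:119343425-119355536, GRCm38, minus strand), the sulfamidase, had 94 reads in LPS-treated knockout and 119 in LPS-treated wild type, against 420 and 554 in untreated knockout and wild type. Both LPS libraries were low, and in each treatment the knockout had fewer reads than wild type. The genotypes gave nearly equal log2 LPS ratios, -1.89 (-2.23 to -1.57) in knockout and -1.91 (-2.21 to -1.62) in wild type. The fit gave -1.90 (SE 0.133; edgeR adjusted p = 7.63e-06), the lowest of the 34 genes. Card14, which overlaps it on the opposite strand, had 4 and 3 reads in LPS-treated knockout and wild type and 26 and 33 in the untreated cells. Ids, the iduronate sulfatase, stayed between 31.0 and 32.2 CPM in all 4 libraries.

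In lipid breakdown, Lipa and Psap fell while Asah1 and Smpd1 did not pass. Lipa, the acid lipase that frees cholesterol and fatty acids from engulfed lipoproteins, had 3325 and 3981 reads in LPS-treated knockout and wild type, against 7236 and 6955 in untreated knockout and wild type. The LPS-treated knockout was the lowest library. Its log2 LPS ratio was -0.86 (-0.91 to -0.80) in knockout and -0.50 (-0.55 to -0.44) in wild type (fitted -0.68; edgeR adjusted p = 0.000355). Psap, the precursor of the saposins that present sphingolipids to their enzymes, had 355 and 442 CPM in LPS-treated knockout and wild type, and 516 and 545 CPM in untreated knockout and wild type. It fell by 0.42 on the log2 scale in the fit. Asah1, the acid ceramidase, had 109 and 125 CPM with LPS in knockout and wild type, and 113 and 111 CPM untreated. Smpd1, the acid sphingomyelinase, was low in every library, at 171 and 163 reads with LPS and 197 and 182 untreated in knockout and wild type.

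Among the enzymes that cut peptide, thioester and phosphate bonds, Lgmn and Tpp1 fell. Lgmn (chr12:102394084-102439813, GRCm38, minus strand) encodes legumain, an endopeptidase that cuts after asparagine and takes part in antigen processing. Its reads were 1875 in LPS-treated knockout and 2073 in LPS-treated wild type, against 5460 and 5367 in untreated knockout and wild type. Both LPS libraries were far below both untreated ones: the log2 LPS ratio was -1.28 (-1.35 to -1.20) in knockout and -1.07 (-1.14 to -0.99) in wild type. The fitted change was -1.17 (SE 0.0777; edgeR adjusted p = 5.69e-06). Tpp1, the tripeptidyl peptidase, had 1333 and 1432 reads in LPS-treated knockout and wild type, beside 2586 and 2351 in untreated knockout and wild type (fitted -0.55).

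Ppt1, which removes palmitate from proteins, did not pass (edgeR adjusted p = 0.0964). Its reads were 3137 and 3262 in LPS-treated knockout and wild type, and 3723 and 3098 in untreated knockout and wild type. The untreated knockout held the most reads, though after normalization LPS-treated wild type was highest, at 212 CPM. Acp2, the lysosomal acid phosphatase, had 25.3 and 28.5 CPM with LPS in knockout and wild type, and 22.7 and 27.2 CPM untreated. Ppt1 shares 129 bases with the far more abundant Cap1 on the opposite strand.

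Of the 5 membrane protein genes, 2 rose and 1 fell, beside 30.2% and 30.1% of all genes tested. Under total-count scaling 2 rose and 3 fell, beside 18.1% and 49.7% of all genes. Lamp1 (chr8:13159161-13175338, GRCm38, plus strand), the most abundant member per length in each library, had 9472 and 10046 reads in LPS-treated knockout and wild type, against 18057 and 17662 in untreated knockout and wild type. Its log2 LPS ratio was -0.66 (-0.70 to -0.63) in knockout and -0.51 (-0.54 to -0.47) in wild type (fitted -0.59, SE 0.0686; edgeR adjusted p = 0.000152). Lamp1 fell, and its paralog Lamp2 went the other way. Lamp2 (chrX:38401357-38456454, GRCm38, minus strand), which also serves chaperone-mediated autophagy, had 7387 and 5543 reads in LPS-treated knockout and wild type, against 4591 and 3964 in untreated knockout and wild type. It rose by a fitted 0.87 (SE 0.0719; edgeR adjusted p = 1.95e-05), with log2 LPS ratios of 0.95 (0.90 to 1.01) in knockout and 0.79 (0.73 to 0.85) in wild type. Per length, Lamp2 stood at 0.218 times Lamp1 in LPS-treated knockout and 0.155 times in LPS-treated wild type, against 0.0712 and 0.0629 in untreated knockout and wild type. The balance between the paralogs thus moved toward Lamp2 in both genotypes, a ratio that the scaling between libraries does not change.

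Cln3, a lysosomal membrane protein whose loss causes juvenile Batten disease, rose by a fitted 1.06 (edgeR adjusted p = 1.19e-05). It had 1726 reads in LPS-treated knockout and 1481 in LPS-treated wild type, against 939 and 935 in untreated knockout and wild type. Ratios with LPS were 1.14 (1.03 to 1.26) in knockout and 0.97 (0.85 to 1.09) in wild type, on either side of the 2-fold line. Cln3 overlaps Apobr on the opposite strand over 876 bases, and Apobr had 2148 and 2160 reads with LPS in knockout and wild type, beside 1145 and 1127 untreated; its part in the Cln3 counts was not tested. Scarb2, the receptor that carries glucocerebrosidase to lysosomes, had 49.7 and 64.7 CPM in LPS-treated knockout and wild type, and 60.7 and 68.9 CPM in untreated knockout and wild type, and did not pass. Mcoln1, a cation channel that releases lysosomal calcium, was at 36.4 to 38.1 CPM in all 4 libraries.

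The V-ATPase has a membrane sector, V0, through which protons pass, and a cytosolic sector, V1, which hydrolyses ATP. Of the 5 V0 genes, 4 rose, and all 3 V1 genes did, where 30.2% of all genes tested rose. Under total-count scaling 3 V0 and 2 V1 genes rose, beside 18.1% of all genes. Tcirg1 (chr19:3896050-3907133, GRCm38, minus strand), the isoform of the V0 a subunit known from osteoclasts, had 7518 reads in LPS-treated knockout and 7168 in LPS-treated wild type, against 3374 and 3290 in the untreated knockout and wild-type libraries. The log2 LPS ratio was 1.42 (1.36 to 1.48) in knockout and 1.43 (1.37 to 1.49) in wild type, which is 2.68-fold and 2.70-fold, nearly the same in both genotypes. Its fitted change of 1.43 (SE 0.0666; edgeR adjusted p = 8.39e-07) had the smallest adjusted p of the 34 genes.

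Atp6v0a1 (chr11:101009452-101063719, GRCm38, plus strand) encodes another isoform of the same subunit. It had 3139 and 2568 reads in LPS-treated knockout and wild type, against 1299 and 1280 in untreated knockout and wild type. With LPS the knockout was above wild type, and the untreated libraries were level. The log2 LPS ratio was 1.54 (1.45 to 1.63) in knockout and 1.31 (1.21 to 1.41) in wild type (fitted 1.43, SE 0.0821; edgeR adjusted p = 2.55e-06). Per length, Tcirg1 exceeded Atp6v0a1 3.51 times in LPS-treated knockout and 4.09 times in LPS-treated wild type, against 3.81 and 3.77 times in untreated knockout and wild type. Both isoforms rose, and the balance between them moved little.

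Of the other V0 genes, Atp6v0d1, the d subunit at the base of the proteolipid ring, had 147 CPM with LPS in both genotypes, against 74.2 and 74.9 CPM in untreated knockout and wild type. It rose by a fitted 0.98, just under 2-fold. Atp6v0b, a proteolipid of the ring, had 204 and 216 CPM in LPS-treated knockout and wild type, and 150 and 152 CPM in untreated knockout and wild type (fitted 0.48; edgeR adjusted p = 0.000464).

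Atp6v0c, the main ring proteolipid, did not pass (fitted 0.33; edgeR adjusted p = 0.0673), and its count is uncertain. The gene had 312 and 281 reads with LPS in knockout and wild type, and 263 and 312 untreated. The protein-coding gene Gm43796 overlaps it over 5837 bases on the same strand and had 0 reads in every library. The effect of that overlap on the Atp6v0c count was not tested. A processed pseudogene on chromosome 6, Atp6v0c-ps2, had 3493 and 3589 reads with LPS and 2584 and 2876 untreated in the same genotypes. Only 7.26 to 9.79% of the summed reads of the pair were assigned to the parent gene. Summed, they gave log2 LPS ratios of 0.68 (0.61 to 0.76) in knockout and 0.59 (0.52 to 0.65) in wild type, an alternative chosen after the data were seen. Atp6v0c is therefore left out of the sums below.

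In the V1 sector, Atp6v1h (chr1:5070018-5162529, GRCm38, plus strand), the regulatory H subunit, had 3178 reads in LPS-treated knockout and 2832 in LPS-treated wild type, against 1746 and 1680 in untreated knockout and wild type. Both ratios lay just past 2-fold, at a log2 of 1.13 (1.05 to 1.22) in knockout and 1.06 (0.97 to 1.15) in wild type (fitted 1.10, SE 0.0703; edgeR adjusted p = 4.7e-06). Atp6v1b2, a B subunit of the ATP-hydrolysing head, had 5890 and 5358 reads with LPS in knockout and wild type, and 4187 and 4235 untreated (fitted 0.70). Atp6v1a, the catalytic A subunit, had 5968 and 6728 reads with LPS in knockout and wild type, and 5942 and 6220 untreated (fitted 0.35). The raw counts of Atp6v1a barely differed, and its rise appears after normalization: under scaling to total counts its log2 LPS ratio was -0.04 in knockout and 0.12 in wild type. Under that scaling the median of all genes moved to -0.33 in knockout and -0.30 in wild type. In the fit, 5 of the 8 V-ATPase genes then rose, beside 18.1% of all genes.

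**Figure D2:**
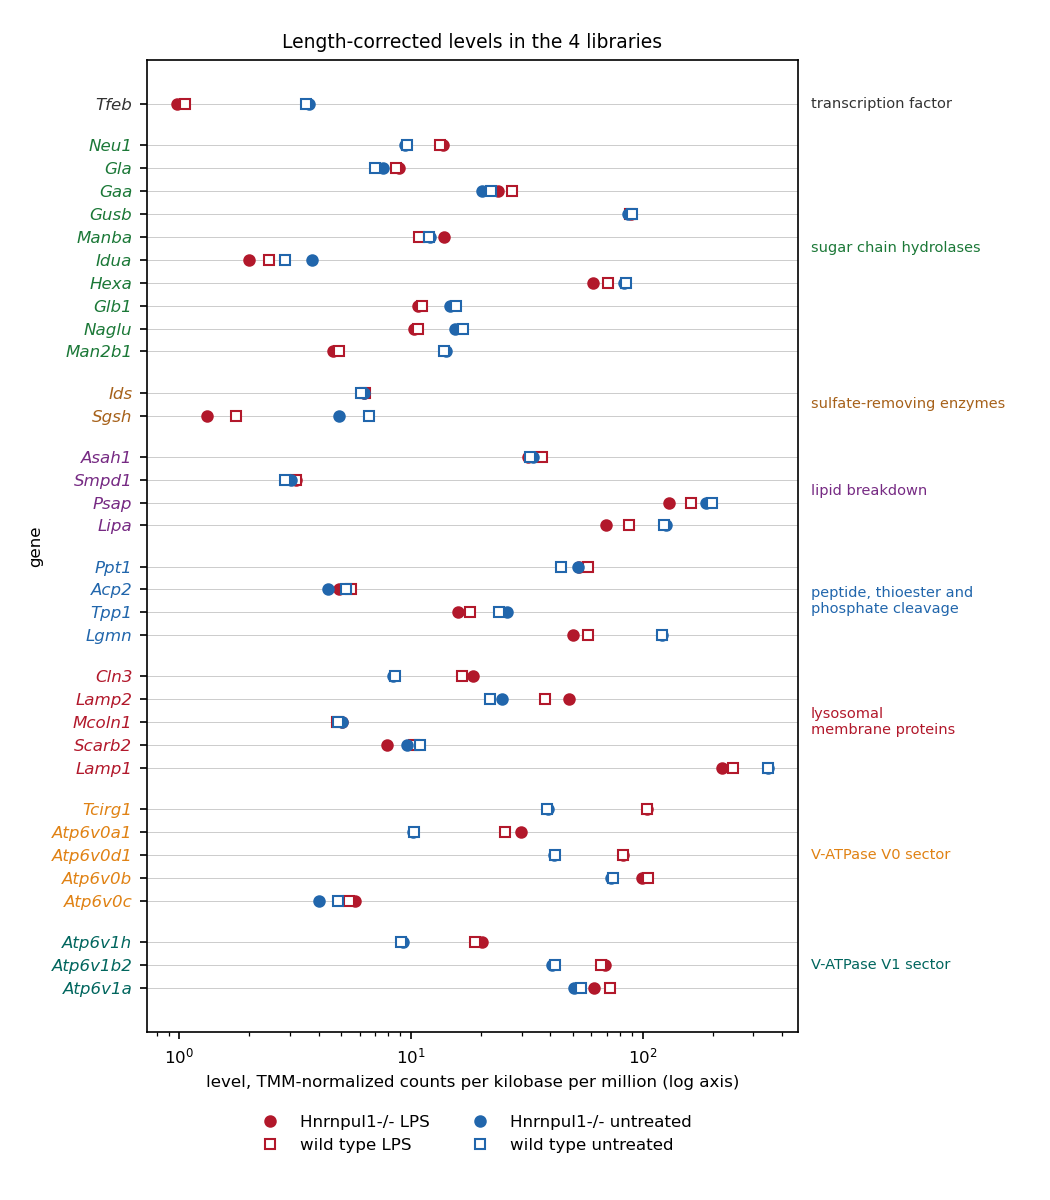
Length-corrected level (TMM-normalized CPM per kilobase, log axis) of each of the 34 genes in each library; red marks LPS, blue untreated, filled circles Hnrnpul1-/- and open squares wild type. Red and blue points separate for Tfeb, Sgsh, Man2b1, Lgmn and most V-ATPase genes, and the genotypes lie close together within a colour.

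Per length, the 34 genes spanned a wide range of levels. Lamp1 ranked first in every library, at 219.9 and 244.6 CPM per kilobase in LPS-treated knockout and wild type, and 348.5 and 347.6 in untreated knockout and wild type. Psap ranked 2 of 34 in every library. Below them the order changed with treatment: Tcirg1 ranked 3 in LPS-treated knockout and 4 in LPS-treated wild type, against 12 in both untreated libraries. Lgmn ranked 12 and 11 in LPS-treated knockout and wild type, and 4 in both untreated libraries. Tfeb stood at 0.975 and 1.06 CPM per kilobase with LPS in knockout and wild type, and at 3.64 and 3.52 untreated.

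Summed over the lumen genes, the level per length was 603.6 in LPS-treated knockout and 683.7 in LPS-treated wild type, against 832.3 and 839.4 in untreated knockout and wild type. The 7 V-ATPase genes without Atp6v0c summed to 466.5 and 474.9 with LPS in knockout and wild type, and to 264.3 and 270.2 untreated. The sum of these 7 genes was thus 0.773 times the lumen sum in LPS-treated knockout and 0.695 times in LPS-treated wild type. In untreated knockout and wild type it was 0.318 and 0.322 times the lumen sum. A ratio of sums within a library does not depend on the scaling between libraries. The sums are dominated by the abundant genes and have no replicate, and they hold only the genes described here. The other V-ATPase subunits and assembly factors summed to 522.8 and 520.1 with LPS in knockout and wild type, and to 467.4 and 487.9 untreated. The other lysosomal enzymes summed to 338.9 and 367.4 with LPS in knockout and wild type, and to 367.9 and 376.5 untreated.

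**Figure D3:**
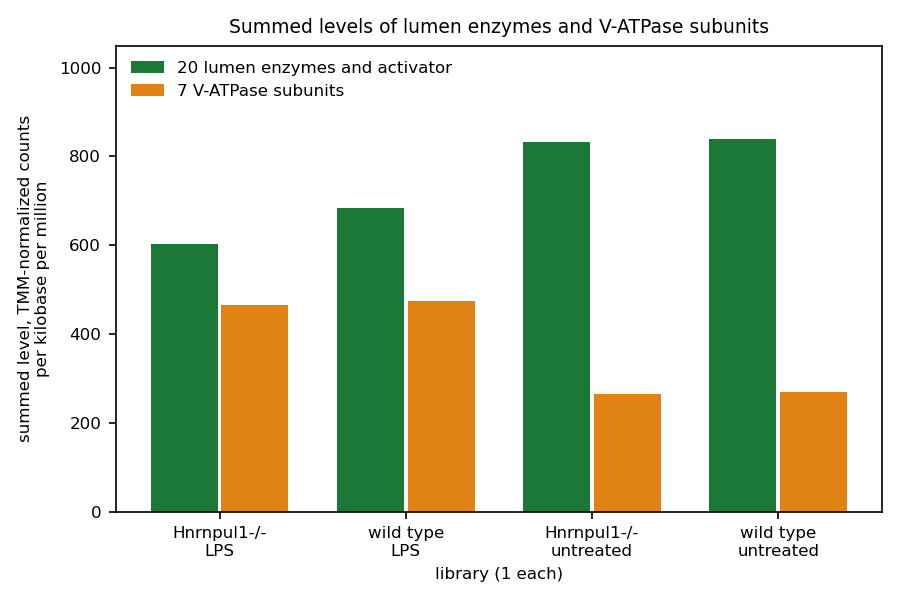
Summed length-corrected level of the 20 lumen genes (green) and of 7 V-ATPase genes (orange) in each library, 1 library per bar with no error bar. The green bars are shorter and the orange bars taller with LPS in both genotypes.

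Other genes of the lysosome, from lists beyond the 34, gave a wider view, to be read against the 30.2% of all genes that rose and the 30.1% that fell (18.1% and 49.7% under total-count scaling). Of 24 other lysosomal enzymes, 22 were measured; 5 rose and 10 fell with LPS (2 and 14 under total-count scaling). Dnase2a, the acid DNase, was lowest, with log2 LPS ratios of -1.96 (-2.13 to -1.79) in knockout and -1.75 (-1.92 to -1.59) in wild type, and Pld3, an exonuclease of the phospholipase D family, was highest, at 2.22 (2.09 to 2.35) and 1.86 (1.73 to 1.99). Of 18 other V-ATPase subunits and assembly factors, 15 were measured; 7 rose and 3 fell (3 and 6 under total-count scaling). The assembly factor Vma21 had ratios of 1.54 (1.46 to 1.62) in knockout and 0.99 (0.90 to 1.08) in wild type. Atp6v0e2, an e subunit isoform, fell, at -1.09 (-1.34 to -0.85) and -1.33 (-1.56 to -1.10). Atp6v0d2 fell furthest of this list, at -2.71 (-4.09 to -1.57) in knockout and -1.36 (-2.10 to -0.67) in wild type, on 7 to 73 reads per library. Of 34 other lysosomal membrane and associated proteins, 30 were measured; 12 rose and 8 fell (10 and 15 under total-count scaling). Among them, the peptide and histidine transporter Slc15a3 had 963 and 535 CPM in LPS-treated knockout and wild type, against 25.5 and 24.0 CPM untreated.

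Between genotypes, none of the 34 genes passed the calls below. The shares of all genes called were small too, so a count of 0 among 34 says little about the lysosomal genes. At 2-fold, 0 of 34 were called in either treatment, where 1.66% of all genes were called higher and 1.83% lower under LPS, and 1.15% higher and 0.859% lower untreated. At 1.5-fold the count was again 0, against 3.98% higher and 4.50% lower under LPS and 2.71% higher and 2.17% lower untreated. In the additive model 0 of 34 passed for genotype, where 0.988% of all genes rose and 0.928% fell. At an unadjusted p under 0.05, edgeR's quasi-likelihood test gave 5 members; DESeq2's Wald test gave 0 after adjustment and 1 before. At that unadjusted threshold edgeR's test took 13.2% of all genes and DESeq2's 4.97%, so the members were near the background.

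**Figure D4:**
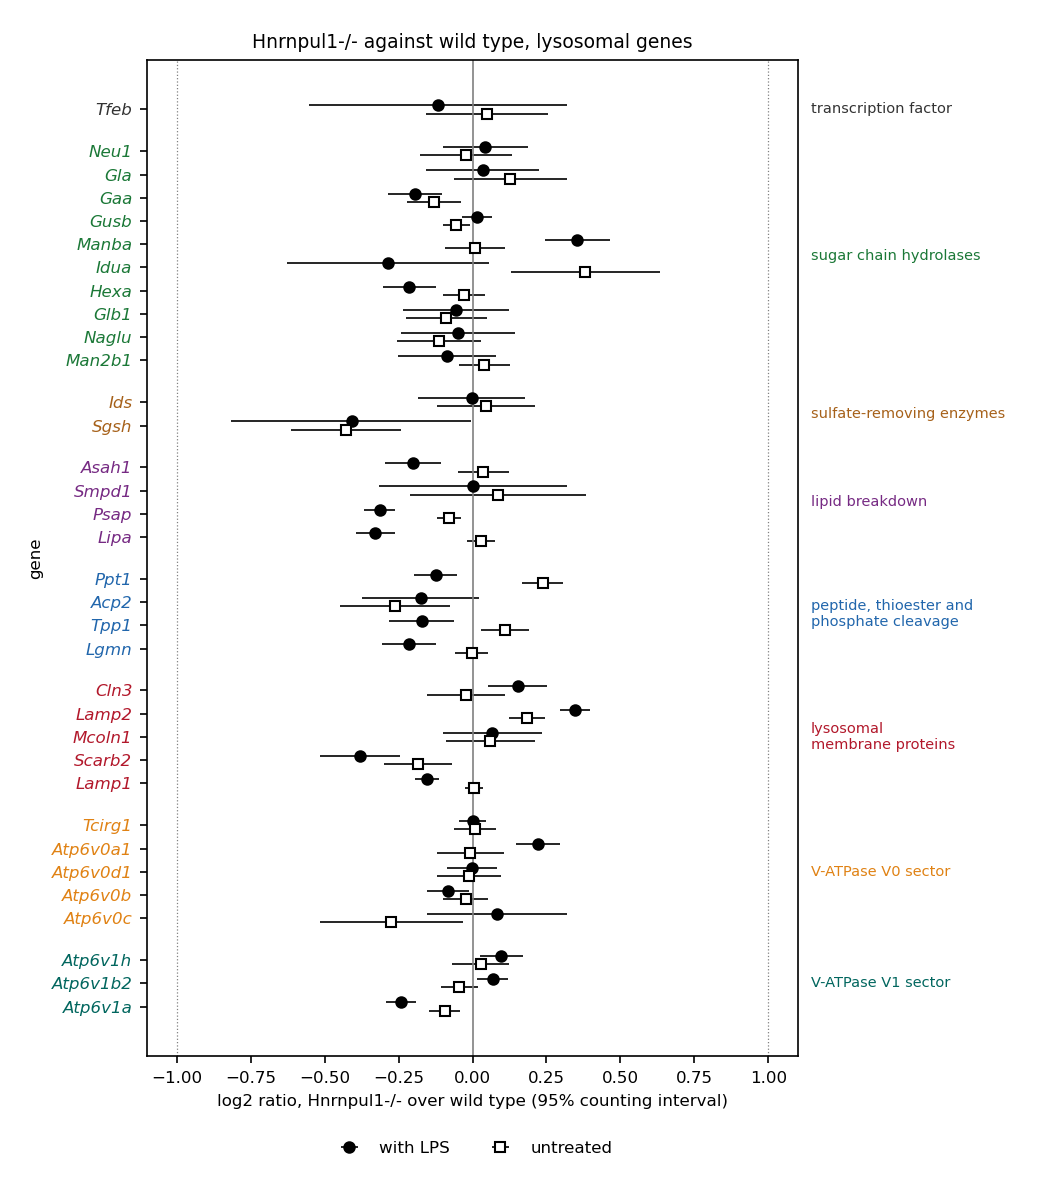
Log2 ratio of Hnrnpul1-/- over wild type for each of the 34 genes with LPS (filled circles) and untreated (open squares); bars are 95% counting intervals and dotted lines mark 2-fold. Every point lies well inside the dotted lines, from -0.43 (Sgsh, untreated) to 0.38 (Idua, untreated).

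Within that narrow range, the ratios under LPS lay mostly below 0 in the lumen. Of the 20 lumen genes, 15 had a knockout over wild-type ratio below 0 under LPS, with a median of -0.15, and 10 did untreated, with a median of 0.003. Over all genes tested these medians were 0.001 under LPS and 0.006 untreated, and 5800 of 11640 genes were below 0 under LPS. So were 15 of 22 other lysosomal enzymes, 22 of 30 other lysosomal membrane proteins and 16 of 19 genes of enzyme sorting to lysosomes. The pattern was thus not particular to the lumen. Other V-ATPase genes had 9 of 15 below 0, MiT and nutrient signalling genes 12 of 20, and autophagy genes 14 of 28. Intervals excluded no change on the lower side for 13 of 34 members under LPS and for 8 untreated, beside 20.1% and 15.2% of all genes. On the higher side they did so for 6 under LPS and 4 untreated, beside 20.1% and 15.8%. The lumen, with 20 of the 34 members, held 9 of the 13 and 1 of the 6 under LPS. These intervals hold counting error alone, and none of the 34 genes passed edgeR's test for genotype. The macrophage marker Lyz2 also differed, at 20041 and 51187 reads in LPS-treated knockout and wild type and 21567 and 30142 untreated. Its log2 ratio of knockout over wild type under LPS, -1.42, was the lowest of 9 measured macrophage markers. Of these 9, intervals excluded no change for 6 on the lower side and 3 on the higher side, the highest ratio being 0.77. The part of these marker differences in the lumen values was not tested.

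Lamp2 had the smallest adjusted p for genotype among the members. Its level was 459 CPM in LPS-treated knockout and 361 CPM in LPS-treated wild type, and 237 and 209 CPM in untreated knockout and wild type. The knockout was higher in both treatments, by a log2 of 0.35 (0.30 to 0.40) under LPS and 0.18 (0.12 to 0.25) untreated, with a fitted 0.27 (edgeR adjusted p = 0.137; 0.733 with DESeq2). Without a filter on low counts the edgeR adjusted p was 0.042, and over all alternatives it ran from 0.042 to 0.733. Sgsh was lower in knockout, with log2 ratios of -0.41 (-0.81 to -0.01) under LPS and -0.43 (-0.61 to -0.24) untreated, and so was Scarb2, at -0.38 (-0.52 to -0.24) and -0.18 (-0.30 to -0.07). Neither passed for genotype, with an edgeR adjusted p of 0.197 for Sgsh and 0.18 for Scarb2.

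The difference between the LPS ratios (knockout minus wild type) reached 2-fold for 0 of 34 members, where 1.19% of all genes were higher and 1.84% lower by that rule. Intervals excluded no change on the higher side for 7 members and on the lower side for 11, beside 13.9% and 15.7% of all genes. The 34 genes had a median difference of -0.05, beside -0.01 over all genes. Idua had the most negative value, -0.67 (-1.08 to -0.25), the single member past 1.5-fold, where 3.86% of all genes were lower and 2.64% higher; it rests on 136 to 304 reads per library. Ppt1 followed at -0.36 (-0.46 to -0.26), and then Lipa, also at -0.36 (-0.44 to -0.28). All 4 genes of lipid breakdown had a negative difference, and 3 of their intervals excluded no change. On the other side, Manba stood at 0.35 (0.20 to 0.49), with 1561 and 1164 reads in LPS-treated knockout and wild type, against 1625 and 1584 in untreated knockout and wild type. Atp6v0a1 stood at 0.23 (0.09 to 0.36). With 1 library in each group none of these differences was tested, and the additive model takes them as its residual.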

How the data were processed

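Polyadenylated RNA of 4 libraries, 1 per group, was measured. Per the submitters' processing notes, CASAVA 1.8, HISAT2 2.0.5 and featureCounts 1.5.0-p3 were used, with the builds GRCm38 and mm10; no strand setting of the counting was given. The authors deposited raw read counts per gene, and FPKM values that equal the count over gene length and over a library constant. That constant was 0.927 to 1.16 times the total count, so the authors' FPKM carry a composition scaling.

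TMM factors came from edgeR 4.0.16 (R 4.3.3), on the 11640 genes whose mean CPM reached 1. They were 0.899 and 0.901 for LPS-treated knockout and wild type, and 1.12 and 1.11 for untreated knockout and wild type. Ratios of library pairs carry exact conditional 95% (Clopper-Pearson) intervals, and the difference between LPS ratios a delta-method interval. Reads are not independent molecules, so these intervals hold counting error alone. The additive model (genotype and LPS) was fitted with edgeR's quasi-likelihood test and, as an alternative, with DESeq2 1.42.0. With 1 library per group, no value has a replicate check.

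Other alternatives were DESeq2 size factors, total counts, upper-quartile factors, no filter on low counts, a minimum mean CPM of 10, calls at 1.5-fold, calls with the entire interval past 2-fold, and log2(FPKM + 1) of the deposited values. The 34 members and the other lists were chosen with earlier results of these data known. Reads or CPM are given in every library for members past 2-fold in any pair of libraries, for the most changed of each role, and for Lamp1, Lamp2 and Tfeb; from each other list at most 4 called members are named. Promoters were matched by symbol in RefSeq's table (GRCm38.p6) for 31 of 34 members, taking the start nearest the gene's 5′ end.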

Additional observations from a re-analysis of the deposited data

Results flagged for a closer look

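Manba, Tpp1 and Ppt1 had effects of opposite sign in the groups compared, with counting intervals that excluded no change on both sides; none of these differences was tested over libraries. The log2 LPS ratio of Manba, the beta-mannosidase, was 0.21 (0.11 to 0.31) in knockout and -0.14 (-0.25 to -0.03) in wild type. Tpp1, the tripeptidyl peptidase, had a log2 ratio of knockout over wild type of -0.17 (-0.28 to -0.06) under LPS and 0.11 (0.03 to 0.19) untreated. For Ppt1, the palmitoyl-protein thioesterase, that ratio was -0.13 (-0.20 to -0.05) under LPS and 0.24 (0.17 to 0.31) untreated. Under total-count scaling the LPS ratio of Manba was below 0 in both genotypes, at -0.10 in knockout and -0.43 in wild type.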

How the results depend on the processing

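The scaling between treatments moved the LPS results most. Under total counts the median LPS ratio of the members was -0.28 in knockout and -0.24 in wild type. Under upper-quartile factors it was -0.11 and -0.090. The medians over all genes tested were -0.33 and -0.30 under total counts, and -0.16 and -0.15 under upper-quartile factors. With total counts, knockout had 2 members higher and 7 lower, and the additive model had 7 members that rose and 18 that fell. Under total counts the lumen genes with a fitted LPS change above 0 went from 10 to 1 of 20. Among those reversed were Gaa (-0.033), Gusb (-0.30), Manba (-0.27), Ids (-0.28) and Asah1 (-0.25). Of these only Gaa was called by edgeR's quasi-likelihood test as reported. Lumen genes that fell went from 10 to 14, and the membrane genes Scarb2 (-0.49) and Mcoln1 (-0.31) also passed under total counts. Neu1, Atp6v0b and Atp6v1a lost their call there, Gaa also under upper-quartile factors and DESeq2's Wald test, and Idua under DESeq2's Wald test alone. With the 1.5-fold rule, knockout had 7 higher and 8 lower, wild type had 7 higher and 5 lower, and the difference between LPS ratios had 1 lower. Without a filter on low counts, 1 member, Lamp2, was higher in knockout (fitted 0.27). The 2-fold counts of members between genotypes were 0 under each alternative run. No paired analysis was possible because each group has 1 library and the labels give no replicate numbers. Leaving out a library leaves the additive model no residual degree of freedom, so it gives no test.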

Other observations

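Genes that work around the lysosome were counted against the background of all genes tested, of which 30.2% rose and 30.1% fell with LPS (18.1% and 49.7% under total-count scaling). Of 29 autophagy genes 28 were measured; 13 rose and 5 fell with LPS (5 and 12 under total-count scaling). Sqstm1, the cargo receptor p62, had 20141 and 20866 reads in LPS-treated knockout and wild type, against 3245 and 3241 in untreated knockout and wild type, a log2 ratio of 2.90 (2.85 to 2.95) in knockout and 2.99 (2.94 to 3.05) in wild type. All 19 genes of enzyme sorting to lysosomes were measured; 8 rose and 4 fell (1 and 7 under total-count scaling). M6pr, a mannose phosphate receptor that delivers hydrolases from the Golgi, had 17074 and 17028 reads in LPS-treated knockout and wild type, against 7264 and 8074 untreated, and Gga2, a coat adaptor for such receptors, had 577 and 565 against 1985 and 1807. Of 23 genes of the MiT factors and the nutrient signalling to them, 20 were measured; 8 rose and 4 fell (3 and 10 under total-count scaling). Mitf had 1121 and 1771 reads in LPS-treated knockout and wild type, beside 1036 and 1006 untreated.

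The lists of other lysosomal enzymes, V-ATPase and membrane genes, MiT, sorting and autophagy genes held 22, 15, 30, 20, 19 and 28 measured genes. Of these, 1 gene passed the threshold for genotype, beside 0.988% of all genes tested on the higher side and 0.928% on the lower side. This was Gpnmb, a glycoprotein of lysosomal membranes in macrophages. Its level was 130 CPM in LPS-treated knockout and 334 CPM in LPS-treated wild type, and 556 CPM in untreated knockout and 830 CPM in untreated wild type. Knockout was lower by a fitted log2 of -0.96 (edgeR's quasi-likelihood test, adjusted p = 0.0242), with ratios of -1.36 (-1.44 to -1.29) under LPS and -0.58 (-0.61 to -0.54) untreated.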
